A study of Mus musculus with 15 samples.

Results

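Glycolysis and glycogen metabolism were followed through 38 genes in RNA-seq of the tibialis anterior, a fast-twitch muscle of the lower hindlimb, of adult C57BL/6 mice. The genes were taken by name from a fixed list of glycolytic enzymes, glucose and lactate carriers, glycogen enzymes and fructose bisphosphatase. All 38 were found among the 42396 entries of both count tables and all 38 were tested in every fit. The hindlimb had received AAV6 (a muscle-infecting adeno-associated virus) 2 months earlier. It carried either LSMEM2 C-del, which the labels do not explain further, or EGFP, a green fluorescent protein, as mock. Mock and C-del were each represented by 4 libraries in males, and in females by 3 mock and 4 C-del libraries. The mock animals had thus received the virus too. Each sex came as a separate table, and a difference between the sexes cannot be told apart from a difference between the tables. The promoter of the vector, the share of infected fibres and whether each library is another animal were not given in the labels, so p-values cover library-to-library spread, part of which may be technical.

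Glycolysis splits glucose into pyruvate in the cytosol and gives ATP without oxygen, and fast muscle fibres rely on it during short, intense contraction. Glucose enters through membrane carriers or is released from glycogen, the branched glucose store that glycogen synthase and branching enzyme build and that glycogen phosphorylase takes apart. Pyruvate is reduced to lactate, which leaves the fibre through monocarboxylate carriers, and protein phosphatase 1 is brought to glycogen by targeting subunits that favour storage.

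The delivered gene, Lsmem2, checked the labels. Its level was 28.5 to 29.7 CPM (counts scaled to a common library size within each sex) in male mock and 479 to 2363 CPM in male C-del libraries, a log2 fold change of 5.68 ± 0.57 (SE; edgeR, adjusted p = 0.00223). Female levels were 29.7 to 32.9 CPM with mock and 1358 to 2696 CPM with C-del, a log2 fold change of 5.98 ± 0.27 (SE; edgeR, adjusted p = 3.05e-05). Exact permutation tests, two-sided, gave 0.0286 (males) and 0.0571 (females) as p, the smallest that these group sizes allow. Library totals were 14297600 to 17744000 counts in males and 9285150 to 12054900 in females. Heart markers (3 genes) summed to at most 7.77 CPM, whereas 4 skeletal muscle markers summed to at least 77753 CPM, and Myl7, a heart myosin light chain, was at 0 in every female library. Female mock library 3 stood apart by transcript length: genes with a longest transcript of up to 1000 bases lay at 0.495 relative to the female mean (median, log2) and those over 8000 bases lay at -0.638, while the other 6 female libraries stayed between -0.175 and 0.177. Leukocyte markers (10 genes, none at 0) summed to 1174 and 651 CPM in female mock libraries 2 and 3 and to 66.0 to 138 CPM in the other female libraries. In males they summed to 205 and 222 CPM in C-del libraries 1 and 2 and to 68.7 to 114 CPM in the other 6. A list of slow and oxidative fibre markers (8 genes) was carried by Myh2, a myosin heavy chain of fast oxidative fibres. It summed to 1769 to 2745 CPM in female mock and 4022 to 5909 CPM in female C-del libraries, of which the 7 markers other than Myh2 made up 221.5 to 255 and 236 to 483 CPM. Male sums of the 8 were 1397 to 1640 and 1549 to 2153 CPM. In males tendon markers (8 genes) summed to 324 to 504 CPM with mock and 199 to 335 CPM with C-del, with 1 (Tnmd) passing as lower and 5 lower at an unadjusted p under 0.05. Of 8 fast fibre markers, Myh1, a fast myosin heavy chain, rose in males (log2 0.39; edgeR, adjusted p = 0.0114). The rest of the list was negative in males and did not pass. Myh4, another fast myosin heavy chain, was -0.33 (edgeR, adjusted p = 0.096). At an unadjusted p under 0.05, 1 of the 8 was higher and 2 were lower. The 8 summed to 125782 to 134461 CPM in male mock and 111802 to 135214 CPM in male C-del libraries, with C-del libraries 1 and 2 lowest. Deviations from the group mean were correlated across genes between male libraries 1 and 2 and between 3 and 4, called neighbouring here. Their r was 0.0207 (mock 1 and 2) to 0.147 (mock 3 and 4), against -0.459 to -0.600 for the other pairs within a male group. Deviations from a shared mean lean toward negative r, so the values near 0 stand out only against the other pairs. In females all 10 leukocyte markers were lower at an unadjusted p under 0.05 (edgeR), and 0 passed. Endothelial markers (5 genes) summed to 276 to 304 CPM in female mock and 341 to 367 CPM in female C-del libraries, without overlap. Of these, 4 were higher in females at that unadjusted level, and 0 passed. Male red cell markers (4 genes) summed to 427 to 614 CPM with mock and 551 to 1269 CPM with C-del. The part of these markers in the results was not tested, and values without the libraries named are given beside some of the members. Without female mock library 3 the female log2 fold change changed sign for 8 of the 38 members (Pfkm, Gapdh, Pgam2, Gyg, Phkb, Pfkfb3, Ppp1r3a and Gpd2), and 0 of the 38 passed.

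**Figure D1:**
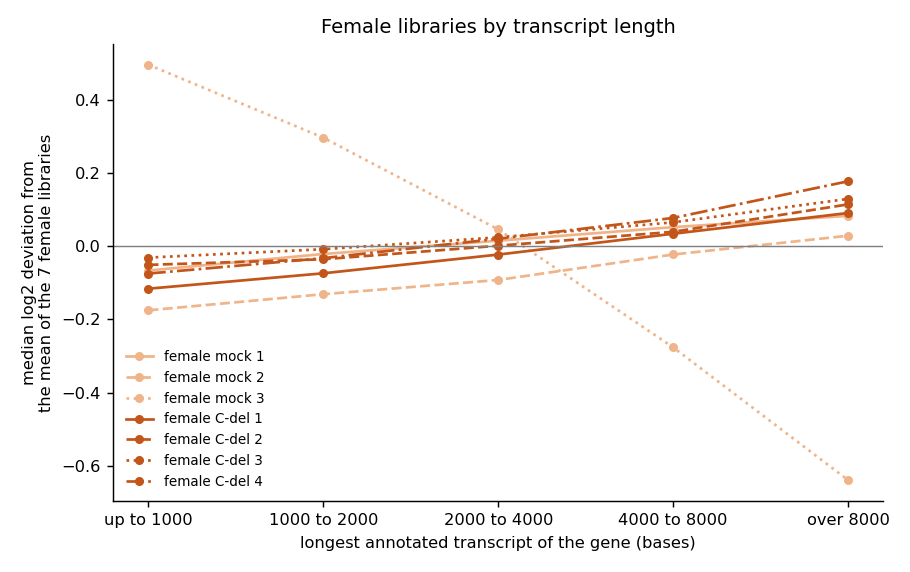
Median log2 deviation (vertical axis) of genes in 5 classes of longest annotated transcript (horizontal axis, bases) for each of the 7 female libraries, with lines joining the classes of 1 library. Female mock library 3 falls from 0.495 in the shortest to -0.638 in the longest class, and the other 6 stay between -0.175 and 0.177.

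In males, C-del muscle had more RNA of the muscle lactate carrier Slc16a3, the glycolytic enzymes Gapdh and Aldoa, the glucose carrier Slc2a4, the glycogen branching enzyme Gbe1 and the glycogen-targeting subunit Ppp1r3c, and less RNA of the muscle fructose bisphosphatase Fbp2, the phosphorylase kinase subunit Phkg1 and the mitochondrial glycerol phosphate dehydrogenase Gpd2. In females 0 of the 38 passed, although Fbp2 had a log2 fold change of -0.89, the largest in size among them. Over both sexes Ppp1r3c, Gbe1 and Gys1 (muscle glycogen synthase) rose, and Fbp2 and Gpd1 (cytosolic glycerol phosphate dehydrogenase) fell. Several of these calls depended on the libraries or settings used. In males those of Aldoa, Slc2a4, Phkg1 and Gpd2 were lost in 10, 6, 8 and 11 of 21 alternatives. With neighbouring male columns summed, which left 2 libraries a group, every male call but that of Slc16a3 was lost. Over both sexes those of Gys1 and Gpd1 were lost in 21 and 19 of 28. In whole-muscle RNA, fewer cells of a type and less RNA per cell cannot be told apart.

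Passing means an adjusted p under 0.05 (Benjamini-Hochberg over all genes tested, edgeR's quasi-likelihood test). In males 9 members rose (Slc16a3, Pfkfb4, Gapdh, Gbe1, Ppp1r3c, Stbd1, Slc2a4, Aldoa and Pfkfb1), where 5.8% of all genes tested rose. There 3 fell (Fbp2, Phkg1 and Gpd2), where 5.37% of all genes fell, and 11.2% passed in either direction. The groups did not overlap, with C-del higher, for 9 members (9.23% of all genes) and, with C-del lower, for 3 (8.49%). Pfkfb1 passed with overlapping groups, and Pgk1 had C-del above mock without passing. DESeq2 called 9 and 3 (10.3% of all genes passed) and limma-voom 8 and 3 (10.8%). At an unadjusted p under 0.05 edgeR gave 12 higher and 4 lower, where 26% of all genes reached that level. The median log2 fold change of the members was 0.05 and that of all genes 0.00, with 23 members and 49% of all genes positive. Summing the counts of neighbouring male columns, which left 2 libraries a group, reduced the calls to 1 higher (Slc16a3) and 0 lower. Of all genes, 270 of 16025 passed there, against 1624 of 14543 in the main fit. Leaving out male mock library 4 left 5 higher, and leaving out male mock library 1 or male C-del library 1 left 1 lower. In these 3 settings 1102 of 14728, 1100 of 14710 and 1136 of 14694 genes passed.

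In females 0 members passed with edgeR, where 0.0141% of all genes did, and 0 passed with limma-voom (0.0141% of all genes). At an unadjusted p under 0.05 there were 3 higher (Gbe1, Ppp1r3c and Gys1) and 3 lower (Fbp2, Gpd1 and Eno1), against 11.9% of all genes. DESeq2 called Gbe1 higher and Fbp2 lower, where it called 2.64% of all genes. The groups did not overlap, with C-del higher, for 2 members (Gbe1 and Gys1; 6.05% of all genes) and, with C-del lower, for 3 (Fbp2, Gpd1 and Ppp1r3d; 4.12%). The median of the members was -0.10 and that of all genes -0.01, with 14 members positive and 24 negative. Without female mock library 1, edgeR called 2 lower, Fbp2 and Eno1. In that setting 1050 of 14706 genes passed, against 2 of 14220 with all 7 libraries.

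**Figure D2:**
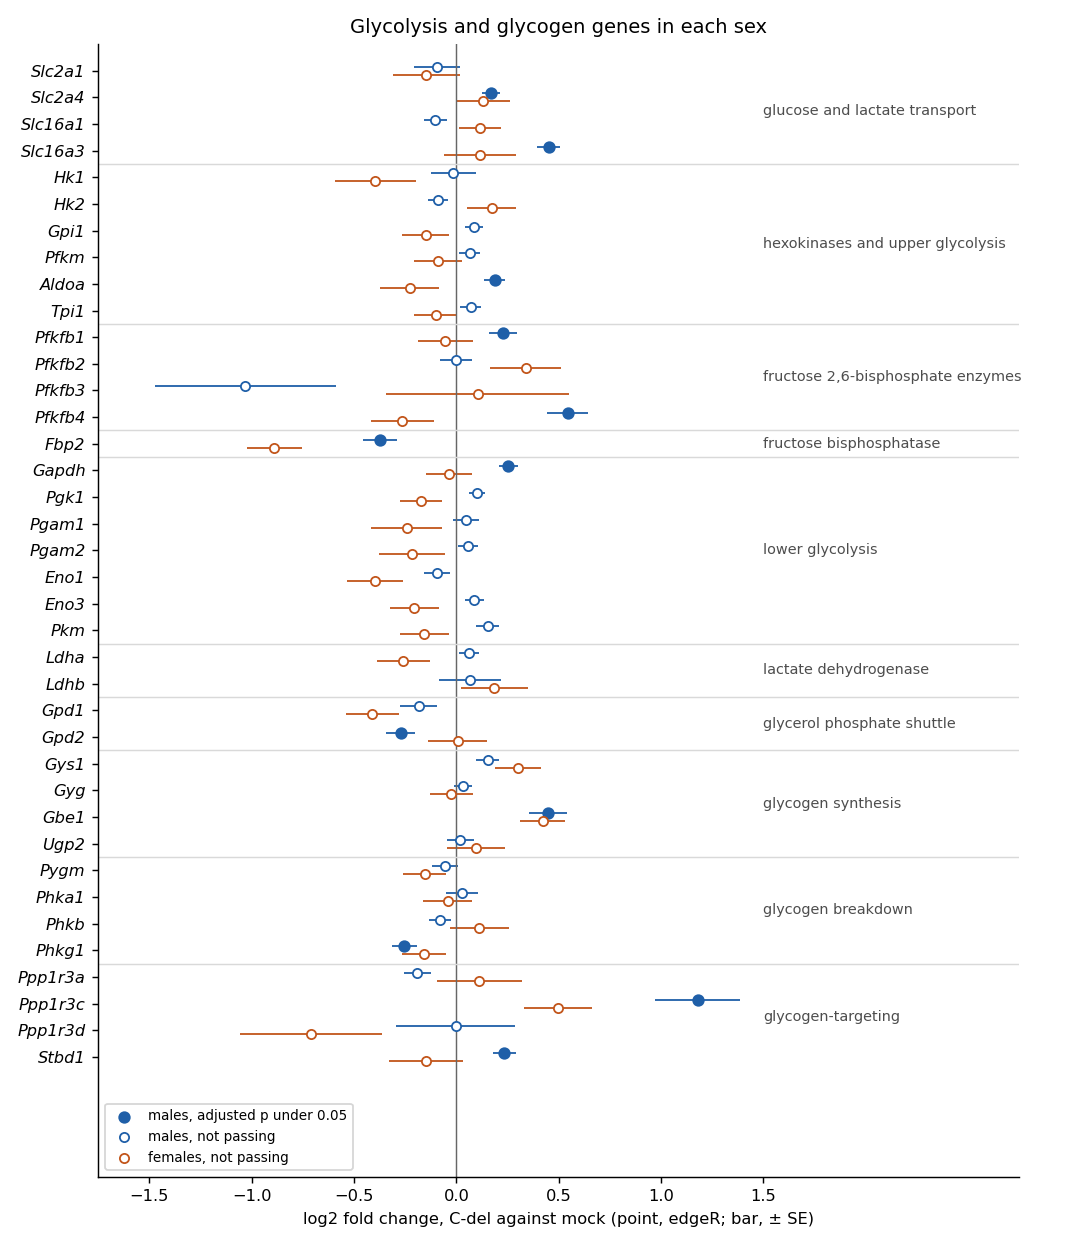
Log2 fold change of C-del against mock (horizontal axis; point, edgeR estimate; bar, ± SE) for the 38 genes (vertical axis, grouped by role) in males and females. Filled points passed at an adjusted p under 0.05: 12 in males and 0 in females. Ppp1r3c in males lies farthest to the right at 1.18, and Fbp2 lies left of 0 in both sexes.

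Levels were compared between genes as CPM per kb of annotated exon, with entries of the same gene at further loci summed. Annotated exon covers the exons of all transcripts of a gene and can be far longer than its longest transcript. It was 3710 against 1549 bases for Aldoa, 5379 against 2027 for Eno1 and 8532 against 4278 for Hk1. For Pgam2 both were 840. The order of the genes and the ratios between them thus depend on the length used. Aldoa, the aldolase of muscle, was the highest member in male mock muscle at 4111 ± 204 CPM per kb (SD, n = 4), followed by the muscle enolase Eno3 (3338 ± 71.2), the muscle phosphoglycerate mutase Pgam2 (2254 ± 68.8), glycogen phosphorylase Pygm (2059 ± 62.9), Gapdh (1974 ± 29.8) and the muscle phosphofructokinase Pfkm (1434 ± 66.1). Pygm and Gapdh differed by less than their summed SDs, unlike the neighbours named before them. The further entry of Pygm holds the same counts as the first, and those of Eno3 and Slc2a4 hold nearly as many, so if the same reads were counted at both places the sums count them again. From the first entry alone, Eno3 was 1680 ± 34.8 and Pygm 1030 ± 30.9 CPM per kb, which put them in the fourth and sixth place, after Aldoa, Pgam2 and Gapdh and on either side of Pfkm. The lowest were Slc2a1 (3.25 ± 0.166), Hk1 (1.39 ± 0.195) and Ppp1r3d (0.292 ± 0.0692 CPM per kb), the last resting on 10.5 to 19 counts a library. The same 3 were lowest in male C-del muscle, and Hk1 and Ppp1r3d held the 2 lowest places in all 4 groups. Counting their further entries, the members together took 6.12% to 6.32% of all counts in male mock and 6.46% to 6.92% in male C-del libraries. In females the shares overlapped, at 5.49% to 6.59% with mock and 5.26% to 5.60% with C-del.

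**Figure D3:**
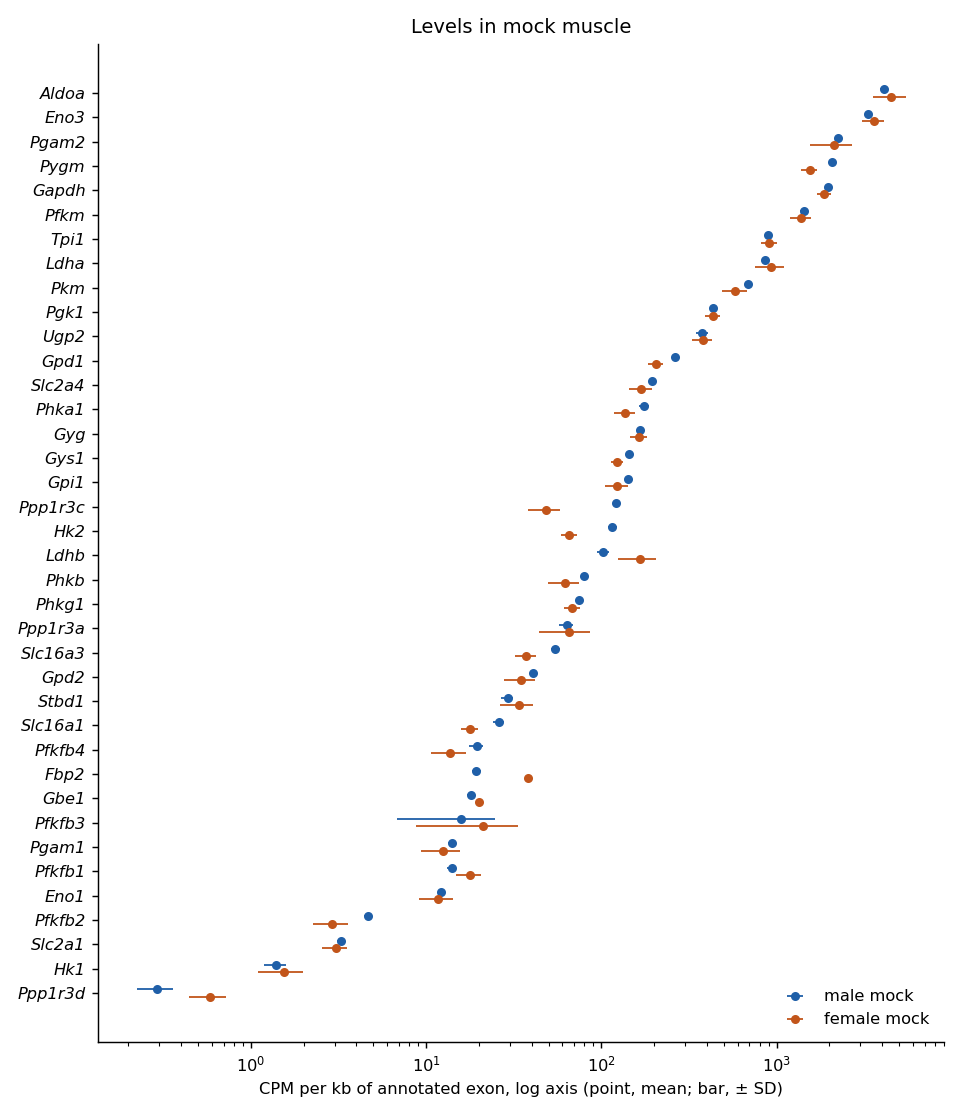
Level of each of the 38 genes in mock muscle (horizontal log axis, CPM per kb of annotated exon; point, mean; bar, ± SD) for 4 male and 3 female libraries, scaled within each sex. Genes are ordered by the male mean, from Aldoa at 4111 to Ppp1r3d at 0.292 CPM per kb.

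Muscle forms outweighed their counterparts in other tissues. The ratio of Eno3 to Eno1 (the widespread enolase) per kb was 274 to 275 in male mock and 289 to 355 in male C-del libraries, and 250 to 413 and 318 to 388 in females. The ratio of Pgam2 to Pgam1 was 154 to 175 in male mock libraries, that of Pygm to Pygb (brain phosphorylase) 1121 to 1457 and that of Pfkm to Pfkl (liver phosphofructokinase) 862 to 1241. Hk2, the insulin-responsive hexokinase, exceeded Hk1 by a ratio of 72.4 to 106, and the insulin-responsive glucose carrier Slc2a4 exceeded Slc2a1 by 55.1 to 63.2. From first entries alone, the male mock ratios were 219.5 to 225.5 for Eno3, 561 to 728 for Pygm, 62.6 to 91.9 for Hk2 and 27.8 to 31.9 for Slc2a4. The smallest ratio was that of Ldha, which favours lactate formation, to Ldhb, the form of heart and slow fibres: 7.94 to 9.23 in male mock and 6.25 to 10.4 in male C-del libraries, and 4.49 to 6.68 and 3.74 to 4.87 in females, overlapping in each sex. Fbp1, the liver fructose bisphosphatase, was at 0 counts in all but 1 library, so Fbp2 carried nearly all counts of that enzyme.

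Among the carriers, Slc16a3 (MCT4, which exports lactate from glycolytic fibres) was 285, 313, 272 and 291 CPM in the male mock libraries and 389, 365, 412 and 422 CPM in the male C-del libraries. The C-del libraries were all higher than the mock libraries. The log2 fold change was 0.45 ± 0.06 (SE; edgeR, adjusted p = 0.000152), and the call was lost only in the fit of all 15 libraries (adjusted p = 0.0688) among 21 alternatives. In females Slc16a3 was 167, 209.9 and 218 CPM with mock and 161, 215, 214 and 272 CPM with C-del, overlapping groups with a log2 fold change of 0.11 ± 0.17. Slc2a4 (GLUT4) was 351, 347, 334 and 338 CPM in male mock and 405, 376, 382 and 379 CPM in male C-del libraries. These groups did not overlap either, and the log2 fold change was 0.17 ± 0.04 (SE; edgeR, adjusted p = 0.0193). That call was lost without male mock library 3 or 4 or male C-del library 1 (edgeR, adjusted p = 0.0659, 0.067 and 0.0534). Female Slc2a4 was 0.13 ± 0.13 (log2, SE), and its libraries overlapped. Slc16a1 (MCT1, common in oxidative fibres) and Slc2a1 (GLUT1) did not pass in either sex, with log2 fold changes of -0.10 and -0.09 in males and 0.12 and -0.15 in females.

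Of the 6 genes of hexokinases and upper glycolysis, 1 rose in males. Aldoa was 15261, 16183, 14364 and 15205 CPM in male mock and 17034, 16754, 17738 and 18034 CPM in male C-del libraries, again without overlap. Its log2 fold change was 0.19 ± 0.05 (SE; edgeR, adjusted p = 0.0295). The call was lost on leaving out any 1 of male mock libraries 1, 3 and 4 and male C-del libraries 1, 3 and 4, where the adjusted p was 0.0502 to 0.101 (edgeR). In females Aldoa was 16493, 13273 and 20383 CPM with mock and 13202, 13958, 14841 and 15145 CPM with C-del. Mock library 3, the one that stands apart by transcript length, was the highest of the 7, and the log2 fold change was -0.23 ± 0.14 (SE; edgeR, adjusted p = 0.563). Without that library it was -0.07 (edgeR, adjusted p = 0.865). Gpi1, Pfkm and Tpi1, the isomerases and phosphofructokinase around aldolase, had male log2 fold changes of 0.07 to 0.09 and female ones of -0.15 to -0.09, with no call. Hk2 was -0.09 ± 0.05 in males and 0.17 ± 0.12 in females, and Hk1 was -0.01 ± 0.11 and -0.40 ± 0.20 (log2, SE), also with no call.

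The 4 bifunctional enzymes of the Pfkfb family make and degrade fructose 2,6-bisphosphate, the strongest activator of phosphofructokinase, and 2 of them rose in males. Pfkfb4 was 87.0, 87.6, 103 and 102 CPM in male mock and 123, 120.1, 154 and 155 CPM in male C-del libraries. The C-del libraries were all higher, and within each group libraries 3 and 4 lay above 1 and 2. The log2 fold change was 0.54 ± 0.10 (SE; edgeR, adjusted p = 0.0089), and the call was kept in 19 of 21 alternatives, the exceptions being male mock libraries 1 and 2 left out (adjusted p = 0.0683) and the summing of neighbouring columns (adjusted p = 0.174). In females Pfkfb4 was 83.9, 62.3 and 55.0 CPM with mock and 56.3, 51.7, 64.2 and 51.8 CPM with C-del, overlapping groups with a log2 fold change of -0.26 ± 0.15. Pfkfb1, the form of liver and muscle, was 60.7, 53.3, 55.4 and 55.6 CPM in male mock and 73.8, 62.4, 59.6 and 68.0 CPM in male C-del libraries. The groups overlapped at 1 library each, and the log2 fold change of 0.23 ± 0.07 (SE; edgeR, adjusted p = 0.0461) passed in 9 of 21 alternatives. Among single libraries it was lost without male mock 2, 3 or 4 or male C-del 1 or 4 (edgeR, adjusted p = 0.103 to 0.131).

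Pfkfb3, the inducible form, showed a split inside the male mock group. It was 168 and 188 CPM in male mock libraries 1 and 2, 54.9 and 67.7 CPM in male mock libraries 3 and 4, and 58.1, 58.1, 58.5 and 59.7 CPM with C-del. The mock libraries thus lay on both sides of the C-del level, and the log2 fold change of -1.03 ± 0.44 did not pass (SE; edgeR, adjusted p = 0.207). Without male mock libraries 3 and 4 it was -1.60 (edgeR, adjusted p = 3.4e-08), and this was the sole alternative of 21 in which it passed. Female Pfkfb3 ranged from 88.8 to 266 CPM with mock and from 110.0 to 305 CPM with C-del. Pfkfb2, the form best known from heart, did not pass in either sex, with log2 fold changes of 0.00 ± 0.08 in males and 0.34 ± 0.17 in females.

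Fbp2, the muscle fructose 1,6-bisphosphatase, runs against phosphofructokinase and serves the return of lactate carbon to glycogen. It was 28.2, 28.7, 30.6 and 26.3 CPM in male mock and 22.2, 18.5, 22.4 and 24.9 CPM in male C-del libraries. Female levels were 53.5, 56.1 and 57.3 CPM with mock and 35.9, 28.6, 24.4 and 31.6 CPM with C-del. In both sexes every C-del library lay below every mock library. The log2 fold change was -0.37 ± 0.08 in males (SE; edgeR, adjusted p = 0.0105), a call that held on leaving out any single male library and in 16 of 21 alternatives (adjusted p of up to 0.106). In females it was -0.89 ± 0.13 (SE), a mock level 1.85 times the C-del level, which did not pass when the sex was fitted alone (edgeR, adjusted p = 0.0775) but passed in the fit of all 15 libraries (adjusted p = 0.000733), with DESeq2 (adjusted p = 1.01e-05), with no filter on low counts (adjusted p = 0.0298) and without female mock library 1 (adjusted p = 0.00652). Of all genes, 777 of 15272 passed for females in the fit of all libraries and 1050 of 14706 without female mock library 1. Without female mock library 3 the female log2 fold change of Fbp2 was -0.87. Without libraries 2 and 3, which leaves a lone mock library whose spread is taken from the C-del group, it was -0.83. The average of both sexes was -0.63 ± 0.08 (SE; edgeR, adjusted p = 0.000222), in a comparison where 4.41% of all genes passed and 1.99% fell. It passed in all 28 alternatives run, with values from -0.68 to -0.57. The female minus male difference was -0.52 ± 0.16 (SE; edgeR, adjusted p = 0.101), so the larger female change was not shown to differ from the male one. In females Myh2 was also apart between the same groups (log2 fold change 1.29; edgeR, adjusted p = 0.0775), while the other 7 slow and oxidative fibre markers, summed, overlapped. Among those 7, Myl3 was apart by itself, at 75 to 101 CPM with mock and 145 to 246 CPM with C-del. Its log2 fold change was 1.02 (edgeR, adjusted p = 0.12), while Myh7, Tnnt1, Tnni1 and Tnnc1 were negative (-0.59 to -0.28). Of the 8, 0 passed. Summed endothelial markers (5 genes) were also apart in females, at 276 to 304 CPM with mock and 341 to 367 CPM with C-del. The part of either list in the Fbp2 result was not tested.

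In lower glycolysis, Gapdh, which makes NADH from glyceraldehyde 3-phosphate, was 8163, 8291, 8008 and 8171 CPM in male mock and 9666, 9373, 9637 and 10262 CPM in male C-del libraries. The groups were far apart relative to their spread, and the log2 fold change was 0.25 ± 0.05 (SE; edgeR, adjusted p = 0.00297). It passed on leaving out any single male library and in 18 of 21 alternatives, the exceptions being male mock libraries 3 and 4 left out (adjusted p = 0.0704), neighbouring columns summed (adjusted p = 0.189) and the fit of all libraries (adjusted p = 0.109). In females Gapdh was 7752, 7055 and 8446 CPM with mock and 6736, 7406, 7971 and 8222 CPM with C-del, with a log2 fold change of -0.03 ± 0.11. The other 6 enzymes of this stretch did not pass in males, with Pkm (muscle pyruvate kinase) nearest at 0.15 ± 0.05 (adjusted p = 0.0866), and Pgk1 (phosphoglycerate kinase) at 0.10 ± 0.04 without overlap. All 7 were negative in females, from -0.40 (Eno1) to -0.03 (Gapdh) on the log2 scale. Eno1 was 30.4, 40.2 and 45.1 CPM in female mock and 31.4, 27.3, 29.99 and 28.7 CPM in female C-del libraries. Its adjusted p was 0.29 (edgeR) with all 7 libraries and 0.0236 without female mock library 1, where 1050 of 14706 genes passed. The 2 female mock libraries rich in leukocyte markers were the 2 with the highest Eno1. Its log2 fold change of -0.40 became -0.28 without mock library 3 and -0.06 without both (edgeR, adjusted p = 0.418 and 0.936), the last against a lone mock library.

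Ldha, the highest lactate dehydrogenase gene, was 2860.2, 2811, 2819.5 and 2928 CPM in male mock and 2924, 2800.1, 3049 and 3162 CPM in male C-del libraries. It was 2884, 2635 and 3724 CPM in female mock and 2508, 2429, 2634 and 2745 CPM in female C-del libraries. The groups overlapped in both sexes, with log2 fold changes of 0.06 ± 0.05 and -0.26 ± 0.13 (SE). Female mock library 3 was the highest, and without it the female value was -0.11 (edgeR, adjusted p = 0.69). Ldhb was 0.07 ± 0.15 in males and 0.18 ± 0.16 in females, with no call.

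Read together, 10 enzymes of the main chain (Gpi1, Pfkm, Aldoa, Tpi1, Gapdh, Pgk1, Pgam2, Eno3, Pkm and Ldha, a list chosen after their values were seen and so given without a test) had opposite signs in the sexes. Hk2, the first enzyme of the chain, was not in the list and had the other sign in each sex (-0.09 in males, 0.17 in females). Hk1 (-0.01 in males, -0.40 in females) and Eno1 (-0.10 and -0.40) were not in it either and were negative in both sexes. Pgam1, also left out, had the signs of the 10 (0.05 and -0.24). Among all genes tested, 49% were positive in males and 47.6% in females. All 10 log2 fold changes were positive in males, from 0.06 to 0.25 with a median of 0.09, and 2 passed. All 10 were negative in females, from -0.26 to -0.03 with a median of -0.16, and 0 passed. By library, the median deviation of the 10 was -0.10 to -0.02 in male mock and -0.03 to 0.13 in male C-del libraries. In females it was 0.07, -0.11 and 0.28 in mock libraries 1 to 3 and -0.14, -0.12, 0.00 and 0.00 in C-del libraries 1 to 4. Without female mock library 3, 3 of the 10 (Pfkm, Gapdh and Pgam2) were positive and the median was -0.06. Without female C-del library 1, Gapdh was positive, and without male C-del libraries 3 and 4, Tpi1 was -0.01.

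**Figure D4:**
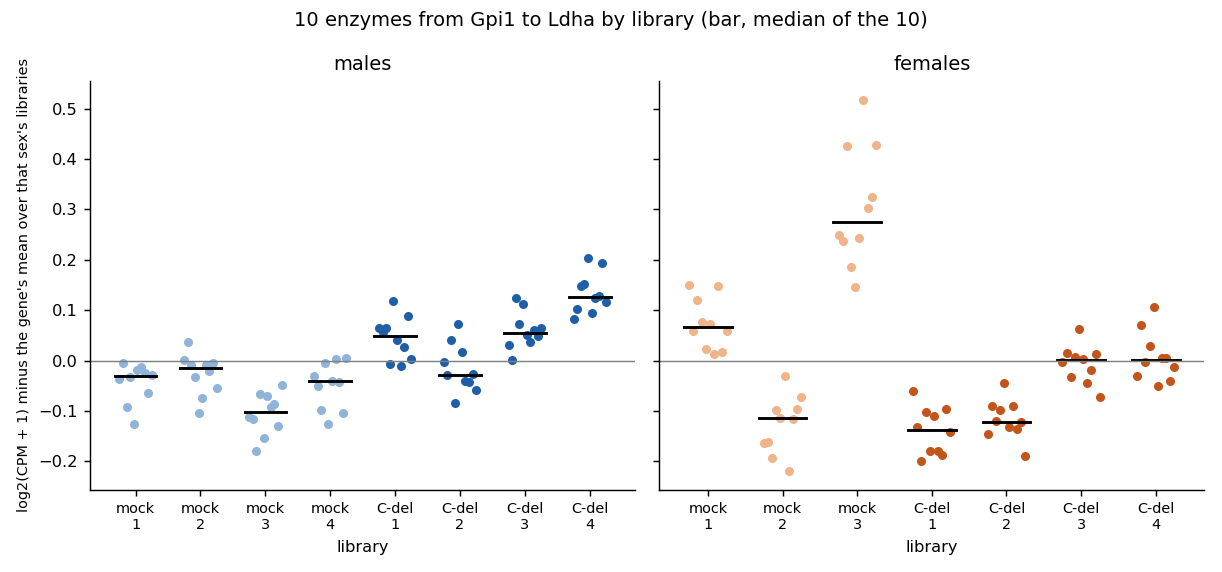
Deviation of log2(CPM + 1) from the gene's mean over the libraries of that sex (vertical axis) for 10 glycolytic enzymes (points) in each library (horizontal axis), males left and females right, with a bar at the median of the 10. Female mock library 3 is highest with a median of 0.28, and female mock library 2 at -0.11 lies among the C-del libraries.

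The glycerol phosphate shuttle, which passes the electrons of cytosolic NADH to mitochondria, gave 1 call in males. Gpd2, its mitochondrial enzyme, was 273, 269.9, 267 and 262 CPM in male mock and 198, 200.5, 252 and 238 CPM in male C-del libraries. All C-del libraries were lower, libraries 1 and 2 the most, and the log2 fold change was -0.27 ± 0.07 (SE; edgeR, adjusted p = 0.0264). The call was lost without any 1 of the 4 male mock libraries or male C-del library 1 or 2 (edgeR, adjusted p = 0.0539 to 0.0699). Without male C-del libraries 1 and 2 it was -0.13 (edgeR, adjusted p = 0.106). Among male libraries these 2 were highest in leukocyte markers and lowest in fast fibre markers, and the part of either was not tested. In females Gpd2 was 0.01 ± 0.14 and, without mock library 3, -0.15. Gpd1, the cytosolic enzyme, was 764, 789.7, 760.5 and 807 CPM in male mock and 625, 578, 750.0 and 795 CPM in male C-del libraries, which overlapped. In females it was 675, 588 and 559.8 CPM with mock and 496, 373, 500.2 and 466 CPM with C-del, which did not. The log2 fold change was -0.18 ± 0.09 in males and -0.41 ± 0.13 in females, and the average of -0.30 ± 0.08 (SE) passed narrowly (edgeR, adjusted p = 0.0454). That call was lost in 19 of 28 alternatives and on leaving out any of 12 of the 15 libraries (all but male C-del 4, female C-del 1 and female mock 3), with an adjusted p of up to 0.0946 there.

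Of the 4 genes of glycogen synthesis, 1 rose in males and 2 in the average of both sexes. Gbe1, which makes the branch points of glycogen, was 101, 89.2, 98.7 and 96.1 CPM in male mock and 145, 151, 116 and 114 CPM in male C-del libraries. Female Gbe1 was 106, 106 and 110.2 CPM with mock and 129, 139, 167 and 141 CPM with C-del. In both sexes every C-del library was above every mock library, with log2 fold changes of 0.45 ± 0.09 in males (SE; edgeR, adjusted p = 0.0129) and 0.42 ± 0.11 in females (SE; edgeR, adjusted p = 0.186; DESeq2, adjusted p = 0.0209). The average was 0.44 ± 0.07 (SE; edgeR, adjusted p = 0.0027), where 2.42% of all genes rose, and it passed in 27 of 28 alternatives, with neighbouring male columns summed as the exception (adjusted p = 0.0725). The female minus male difference was -0.03 ± 0.15.

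Gys1, which lengthens the glucose chains, was 694, 727, 666 and 670.0 CPM in male mock and 849, 779, 706 and 732 CPM in male C-del libraries, overlapping between mock library 2 and C-del library 3. Female Gys1 was 623, 538 and 614 CPM with mock and 654, 729, 717 and 819 CPM with C-del, without overlap. The log2 fold change was 0.15 ± 0.06 in males and 0.30 ± 0.11 in females, neither passing, and the average was 0.23 ± 0.06 (SE; edgeR, adjusted p = 0.0472). This call was lost in 21 of 28 alternatives and on leaving out any of 12 of the 15 libraries (all but female mock 1, female mock 3 and female C-del 1), with an adjusted p of up to 0.101 there. Gyg (glycogenin, which primes the chains) and Ugp2 (which makes UDP-glucose, the donor) had log2 fold changes of 0.03 and 0.02 in males and -0.02 and 0.10 in females, with no call.

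Glycogen breakdown gave 1 call. Phkg1, the catalytic subunit of muscle phosphorylase kinase, was 493, 506, 465 and 478 CPM in male mock and 385, 362, 439 and 443 CPM in male C-del libraries. All C-del libraries were lower, and the log2 fold change was -0.25 ± 0.06 (SE; edgeR, adjusted p = 0.0174). The call was lost without male mock library 1 or 2 or male C-del library 1 (edgeR, adjusted p = 0.0531, 0.0519 and 0.0568). Libraries 1 and 2 were again the lowest, and without both the value was -0.14 (edgeR, adjusted p = 0.0793). In females the value was -0.16 ± 0.11 and the groups overlapped. The other subunits of the kinase, Phka1 and Phkb, were 0.03 and -0.08 in males and -0.04 and 0.11 in females. Pygm was -0.06 ± 0.06 and -0.15 ± 0.11 (log2, SE). Its entry at a further locus held the same counts, so its reads could not be assigned to 1 place.

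Of the glycogen-targeting proteins, Ppp1r3c (PTG), which brings protein phosphatase 1 to glycogen synthase, showed the largest change among the members that passed. It was 349, 309.9, 339 and 332 CPM in male mock and 589, 552, 941 and 927 CPM in male C-del libraries. C-del libraries 3 and 4 were far above C-del libraries 1 and 2, which in turn were above all mock libraries. The log2 fold change was 1.18 ± 0.21 (SE; edgeR, adjusted p = 0.0162), a C-del level 2.26 times that of mock. The call was lost in 4 of 21 alternatives. They were male mock library 4 left out (edgeR, adjusted p = 0.0514), male mock libraries 3 and 4 left out (0.139), male mock libraries 1 and 2 left out (0.113) and neighbouring columns summed (0.234). In females Ppp1r3c was 108, 161 and 124 CPM with mock and 173, 157, 193 and 220.2 CPM with C-del, with mock library 2 above C-del library 2, and the log2 fold change was 0.50 ± 0.17 (SE; edgeR, adjusted p = 0.269). The average was 0.84 ± 0.13 (SE; edgeR, adjusted p = 0.00164) and passed in all 28 alternatives run, with values from 0.644 to 0.999. The difference between the sexes was -0.68 ± 0.25 (SE; edgeR, adjusted p = 0.18).

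Stbd1, which ties glycogen to membranes, was 58.1, 66.5, 64.1 and 70.3 CPM in male mock and 74.4, 74.6, 77.2 and 78.7 CPM in male C-del libraries. The groups did not overlap, and the log2 fold change was 0.23 ± 0.06 (SE; edgeR, adjusted p = 0.0171). The Stbd1 call was lost in 5 of 21 alternatives. These include male mock library 1 left out, neighbouring columns summed and the fit of all libraries (edgeR, adjusted p = 0.0507, 0.151 and 0.418). In females it was -0.15 ± 0.18. Ppp1r3a, the main targeting subunit of muscle, was -0.19 ± 0.07 in males (SE; edgeR, adjusted p = 0.0788) and 0.11 ± 0.21 in females, where mock library 3 was lowest at 285 CPM. Without that library the female value turned to -0.14 (edgeR, adjusted p = 0.607). Ppp1r3d was too low to read, at 0.602 to 2.40 CPM over all libraries.

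**Figure D5:**
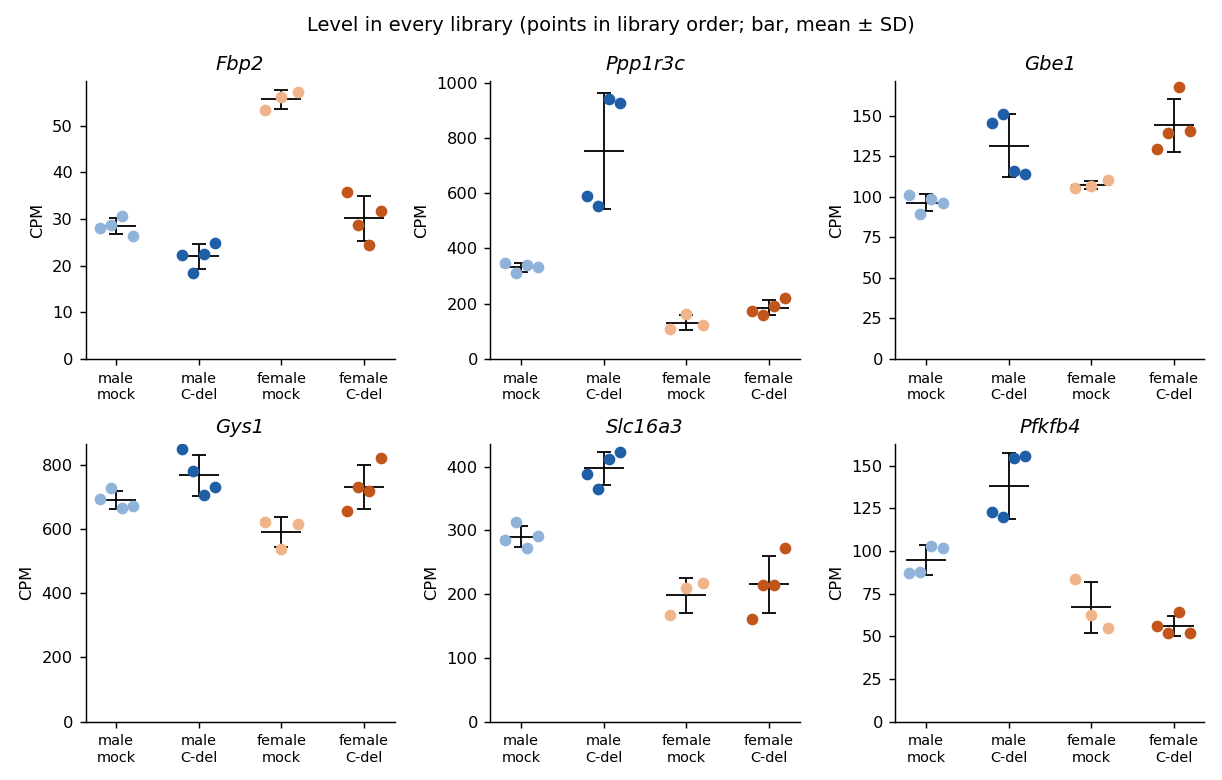
CPM (vertical axis, from 0) of 6 genes in each of the 15 libraries (points, in library order), with a bar at the group mean and whiskers of ± SD (n = 4, 4, 3 and 4), scaled within each sex. Fbp2 is lower and Gbe1 higher in every C-del library than in the mock libraries of that sex, and Ppp1r3c in male C-del libraries splits into 552 and 589 CPM against 927 and 941 CPM.

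The upstream sequences of the 3 members that passed in the average of both sexes with at most 1 alternative lost are shown because the data bear on their RNA together. They are the 250 bases before the RefSeq start, 5′ to 3′ on the gene's strand in GRCm38.p6, in lower case with matches in capitals. Fbp2 is at chr13:62858401-62858650 (minus strand), Ppp1r3c at chr19:36736605-36736854 (minus strand) and Gbe1 at chr16:70313699-70313948 (plus strand).
Fbp2: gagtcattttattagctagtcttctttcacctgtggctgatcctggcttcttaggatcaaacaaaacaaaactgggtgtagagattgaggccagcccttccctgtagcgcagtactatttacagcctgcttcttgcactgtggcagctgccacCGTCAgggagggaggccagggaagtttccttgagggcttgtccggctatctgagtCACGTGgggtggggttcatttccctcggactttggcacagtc
Ppp1r3c: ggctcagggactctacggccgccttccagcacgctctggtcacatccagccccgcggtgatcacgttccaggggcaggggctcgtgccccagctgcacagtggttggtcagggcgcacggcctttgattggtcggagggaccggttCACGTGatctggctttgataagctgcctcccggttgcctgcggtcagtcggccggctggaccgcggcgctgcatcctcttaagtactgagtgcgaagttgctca
Gbe1: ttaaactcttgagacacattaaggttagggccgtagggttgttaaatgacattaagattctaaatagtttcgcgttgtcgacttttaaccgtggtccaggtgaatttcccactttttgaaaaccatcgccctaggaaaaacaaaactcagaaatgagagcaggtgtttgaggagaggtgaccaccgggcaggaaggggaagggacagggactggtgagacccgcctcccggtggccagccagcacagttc
The capitals mark the E-box CACGTG, bound by basic helix-loop-helix factors, in Fbp2 and Ppp1r3c, and in Fbp2 also TGACG, the core of the cyclic AMP response element, read on the other strand. Gbe1 held neither, nor TATAAA or AGAACA (the TATA box and a part of the glucocorticoid response element). Of the 38 members, 36 had a promoter entry. For each member the first entry listed was searched, while the 32851 promoters set beside them hold every entry of every gene. Searched on both strands, CACGTG was in 7 of the 36 members (19.4%; Pfkm, Ldha, Slc16a1, Fbp2, Pfkfb2, Ppp1r3c and Ppp1r3d) and in 6.02% of the 32851 promoters, which had the same length. TGACG was in 10 (27.8%, against 17.8%), AGAACA in 7 (19.4%, against 16.1%) and TATAAA in 1 (2.78%, against 12.4%). The E-box members include Fbp2, which fell, Ppp1r3c, which rose, and 5 members that did not pass in any comparison. For Ldha, Slc16a1 and Pfkfb2 the bases after the window were not found in an annotated transcript of the gene. A match of letters is not a binding site.

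Over both sexes 3 members rose and 2 fell, where 2.42% and 1.99% of all genes did. DESeq2 called 4 and 4 (7.18% of all genes) and limma-voom 2 and 2 (3.22%), and an unadjusted p under 0.05 was reached by 5 and 4 (19.7% of all genes). Of the members, 16 were positive with a median of -0.01 against -0.02 for all genes. By the signs of the separate fits, 7 members were higher in both sexes, 8 lower in both, 16 higher in males and lower in females, and 7 the reverse. The female minus male difference passed for 0 members with edgeR (0.354% of all genes) and 0 with limma-voom (0.124%). At an unadjusted p under 0.05 it gave 0 higher and 9 lower (Aldoa, Gapdh, Pgk1, Eno3, Pkm, Ldha, Fbp2, Pfkfb4 and Ppp1r3c), where 16.9% of all genes reached that level. Pfkfb4 had the smallest p, with a difference of -0.81 ± 0.19 (SE; edgeR, adjusted p = 0.0661). DESeq2 called Pfkfb4 and Pgk1 (4.3% of all genes). Without female mock library 1, edgeR called 5 members lower, where 1817 of 15791 genes passed. Without female mock library 2 it called 1 (Aldoa), where 141 of 15463 genes passed. With all libraries 54 of 15272 genes had passed.

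Of 49 further genes of the pathway, 38 had enough counts to be tested in each sex. Among those reported here, Arrdc4, Tbc1d1, Ldhd and Mlxip rose in males, where 5.8% of all genes did. Bpgm and Gsk3b fell, where 5.37% of all genes did, and in females 0 passed (0.0141% of all genes). Alternatives are given for the members only, not for these genes. Arrdc4, an arrestin-domain relative of the glucose uptake inhibitor Txnip, was 5.11 to 6.83 CPM in male mock and 10.02 to 13.1 CPM in male C-del libraries (log2 0.96 ± 0.12; edgeR, adjusted p = 0.000147). Tbc1d1, which controls GLUT4 traffic, was 160.4 to 179 and 211 to 247 CPM (log2 0.43 ± 0.05; edgeR, adjusted p = 0.000135). Ldhd, a D-lactate dehydrogenase, was 55.3 to 62.4 and 72.4 to 91.3 CPM (log2 0.45 ± 0.07; edgeR, adjusted p = 0.000889). These 3 did not overlap between the male groups, as held with C-del higher for 9.23% of all genes. Mlxip, a glucose-sensing transcription factor, rose by 0.24 ± 0.06 (edgeR, adjusted p = 0.0221). Bpgm, which makes 2,3-bisphosphoglycerate, and Gsk3b, a kinase of glycogen synthase, were -0.24 ± 0.06 and -0.16 ± 0.05 (log2, SE; edgeR, adjusted p = 0.0213 and 0.0455). The average of both sexes rose for Ldhd, Arrdc4 and Tbc1d1 and fell for 0 of the 40 tested there. Of all genes, 2.42% rose and 1.99% fell in that comparison.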

How the data were processed

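The members, roles and lists were chosen with earlier results of these data known. Values deposited by the authors are expected counts per gene, not normalised, made with featureCounts 2.0.0 on GRCm38.p6 per the submitters' processing notes, from libraries prepared, per the labels' protocols, with a kit that keeps strand. The aligner, the strand setting and other counting options were not given in the sources used here. The extraction protocol speaks of hearts and the sample labels of skeletal muscle. Whole counts had been assumed, so the expected counts were rounded and the planned test kept. Titles number the female columns. Male columns could be matched to a group but not to a title, so male numbers only name columns. Same-numbered female libraries did not deviate together (r across genes = -0.134, -0.00874 and -0.0406), so numbers were not used as pairs.

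Genes kept by filterByExpr (minimum count 10) were scaled by TMM and tested with edgeR 4.0.16 (robust quasi-likelihood, Benjamini-Hochberg, threshold 0.05) in R 4.3.3. Each sex was fitted alone, and the average and the difference jointly, over 15 libraries. The SE was taken as the absolute log2 fold change over the square root of F. Alternatives used limma 3.58.1 and DESeq2 1.42.0, other scalings and filters, and libraries left out. Some were chosen after seeing the data: neighbouring male columns summed or left out, and entries at further loci summed or, for levels per kb, left out. Of 2379 such entries of 1766 genes, 5 belonged to members (Pygm, Eno3, Slc2a4, Hk2 and Eno1). Lengths came from GENCODE, promoters from RefSeq's tables for GRCm38.p6, where Slc2a4 and Gpd1 were not matched. Values in every library are given for members that passed in any comparison and, for a role without one, its highest member per kb. Pfkfb3, Eno1 and the 10 enzymes read together were named after their values were seen. A result of the further pathway genes is not reported here. The gene tests were tested on simulated data. Figures used Python 3.11.15 and matplotlib 3.10.9.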

Additional observations from a re-analysis of the deposited data

Results flagged for a closer look

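Hk1, the widespread hexokinase, was 9.35 CPM in male mock library 1 and 12.5 to 12.9 CPM in the other 3 male mock libraries. The gap took 0.888 of the group's range, above the critical value for 4 samples. Over 114 sets of values looked at, chance flags about 1 in 20. Hk1 did not pass in any comparison.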

How the results depend on the processing

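Over 38 members, 4 comparisons and their alternatives, 3568 values were recomputed: 3415 stayed on their side of the threshold, 111 lost a call, 42 gained one and 0 calls reversed, while 171 values without a call changed sign. In males the 9 higher and 3 lower members became 3 and 1 without male mock libraries 3 and 4, 3 and 0 without male mock libraries 1 and 2, 1 and 0 with neighbouring columns summed, and 3 and 0 in the fit of all libraries. The lower count was 0 without male C-del libraries 1 and 2, which left 2 libraries, and 7 without male C-del libraries 3 and 4. Of all genes, 1624 of 14543 passed in the main male fit. It was 767 of 14984 without male mock libraries 3 and 4 and 1046 of 14979 without 1 and 2. Neighbouring columns summed gave 270 of 16025, and the fit of all libraries 380 of 15272. Without male C-del libraries 1 and 2 it was 1126 of 14875, and without 3 and 4 it was 2071 of 14973. Without 1 library at a time there were 5 to 10 higher and 1 to 4 lower members, with 1100 to 1526 of all genes passing. In females the 0 and 0 became 1 and 1 with DESeq2 and 1 and 2 in the fit of all libraries, and 1 lower with no filter. There 376 of 14220 genes passed with DESeq2, 777 of 15272 in the fit of all libraries and 16 of 24320 with no filter. Without 1 library at a time there were 0 higher and 0 to 2 lower members, with 1 to 1050 of all genes passing. For the average, the 2 lower members became 1 with RLE size factors, with no filter, without male mock libraries 3 and 4, male mock libraries 1 and 2 or male C-del libraries 1 and 2, and 4 with DESeq2. Neighbouring columns summed gave 1 higher and 1 lower, where 68 of 15037 genes passed. The main fit of the average had 673 of 15272 genes passing, and DESeq2 1096. Without 1 library at a time there were 2 to 4 higher and 1 to 3 lower members, with 368 to 2085 of all genes passing. For the difference, 0 lower became 2 with DESeq2 and 1 without female mock libraries 2 and 3, and 0 to 5 without 1 library at a time. Among all genes the difference passed for 54 of 15272 in the main fit, 656 with DESeq2 and 10 to 1817 without 1 library at a time. The cause of the changes between settings was not tested. The female replicate block, whose numbers did not pair the libraries, gave 0 higher and 0 lower. Female libraries had fewer counts and 1 mock library fewer than the male ones.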

Other observations

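The entry of Hk2 at a further locus held 12.1% to 13.8% of the counts of both Hk2 entries in 14 of the 15 libraries and 4.94% in female mock library 3, the library that stands apart by transcript length. That of Eno1 held 35.7% to 39.9% in all 15.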
